A study of Mus musculus with 43 samples.

Results

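The clustered protocadherin genes are 58 neighbouring genes on mouse chromosome 18, and the peak lists of this study were read here over those genes alone. The members were chosen by name and place, as every gene of the Pcdha, Pcdhb and Pcdhg families that sits in the 3 adjoining clusters. In the mm10 genome build they run from base 36930184, the start of Pcdha1, to base 37841873, where the transcripts of the gamma cluster end, a stretch of 911.7 kb. The alpha cluster holds 14 members (36930184 to 37187661), the beta cluster 22 (37264938 to 37524479) and the gamma cluster 22 (37661793 to 37841873). All 58 were found in the GENCODE M21 annotation, among 20807 autosomal protein-coding genes in all. GENCODE types 57 of them as protein coding and Pcdhgb8 as a polymorphic pseudogene, and RefSeq names 57, all but Pcdhgb8. GENCODE gives the name Pcdha11 to a pair of genes, and the one that starts within 200 bp of the RefSeq gene Pcdha10 was taken as Pcdha10.

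Clustered protocadherins are cell adhesion proteins best known from neurons, where each cell uses its own small choice of members and the resulting surface code lets a neurite recognise its own branches. In the alpha and gamma clusters each member contributes a long variable exon with its own promoter, which encodes the outer domains, the membrane span and part of the tail, and this exon is spliced to constant exons shared by the whole cluster. Beta members are single-exon genes with no shared constant part. The C-type members, at the downstream ends of the alpha and gamma clusters, are known for being used by most neurons rather than by random choice. H3K9me3 is a mark of heterochromatin, and Setdb1 is among the enzymes that lay it down. H3K9me2 is a related mark mostly laid by other enzymes, and H3K27me3 is the mark of Polycomb repression.

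The cells were mouse embryonic fibroblasts (MEFs) taken at E13.5 from 129/C57 dams mated to CAST sires and carrying a retroviral hairpin. Female cells were Setdb1+/+ Xist∆A/+ with a non-silencing hairpin, Setdb1-depleted cells were female Setdb1+/gt Xist∆A/+ with a hairpin against Setdb1, and male cells were Setdb1+/+ X/Y with the non-silencing hairpin. The gt allele is a gene trap within an intron of Setdb1, so the depleted cells kept 1 intact allele, and the Xist∆A allele, which both kinds of female cell carry, makes the castaneus X the inactive copy. Chromatin immunoprecipitation with sequencing (ChIP-seq) was run on 3 female, 2 Setdb1-depleted and 3 male libraries for each target.

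The libraries of a group were pooled by the authors before peaks were called, so that each target and kind of cell has 1 list, 12 in all, and no value below has a replicate error or a test. The histone lists give broad peaks on a 5 kb grid, at least 10 kb wide, with no strength of the mark, and the depth of the mark libraries is not known from the files. Setdb1-depleted lists were shorter across the autosomes, with 3467 H3K9me3 peaks against 5820 in female and 5217 in male cells, and covered 2.75%, 4.23% and 3.86% of the autosomes respectively. The Setdb1 calls used 14405821 reads of depleted, 18134299 of female and 12320583 of male cells after down-sampling. For the depleted Setdb1 list, the header gives the non-silencing hairpin and the labels the Setdb1 hairpin, and the labels were used. Of 15 fibroblast marker genes, such as Col1a1 and Vim, 0 started in a peak of any of the 3 histone marks in any list. Of 8 autosomal neuron markers, 3 started in a female H3K27me3 peak (Rbfox3, Stmn2 and Neurod1). In depleted cells 2 did (Rbfox3 and Neurod1), and in male cells 3 (Rbfox3, Snap25 and Neurod1). Among all autosomal protein-coding genes the H3K27me3 shares were 20.4%, 18.1% and 18.4% in female, depleted and male cells. For H3K9me3 and H3K9me2 they were at most 2.95% and 1.17%, so 0 of 15 is near them.

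H3K9me3 was the mark that lay over the clustered protocadherins. In female cells 8 peaks touched the region and covered 279.8 kb, or 30.7% of it, against 3.20% of the whole of chromosome 18. In male cells 8 peaks covered 194.8 kb (21.4%, chromosome 18 at 2.46%). In Setdb1-depleted cells 6 peaks covered 100 kb (10.97%, chromosome 18 at 1.26%). All 3 lists thus covered more of the region than of the chromosome around it, and the depleted list covered the least. The depleted list also covered the least of chromosome 18, so a lower covered share in depleted cells was not particular to the region.

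**Figure D1:**
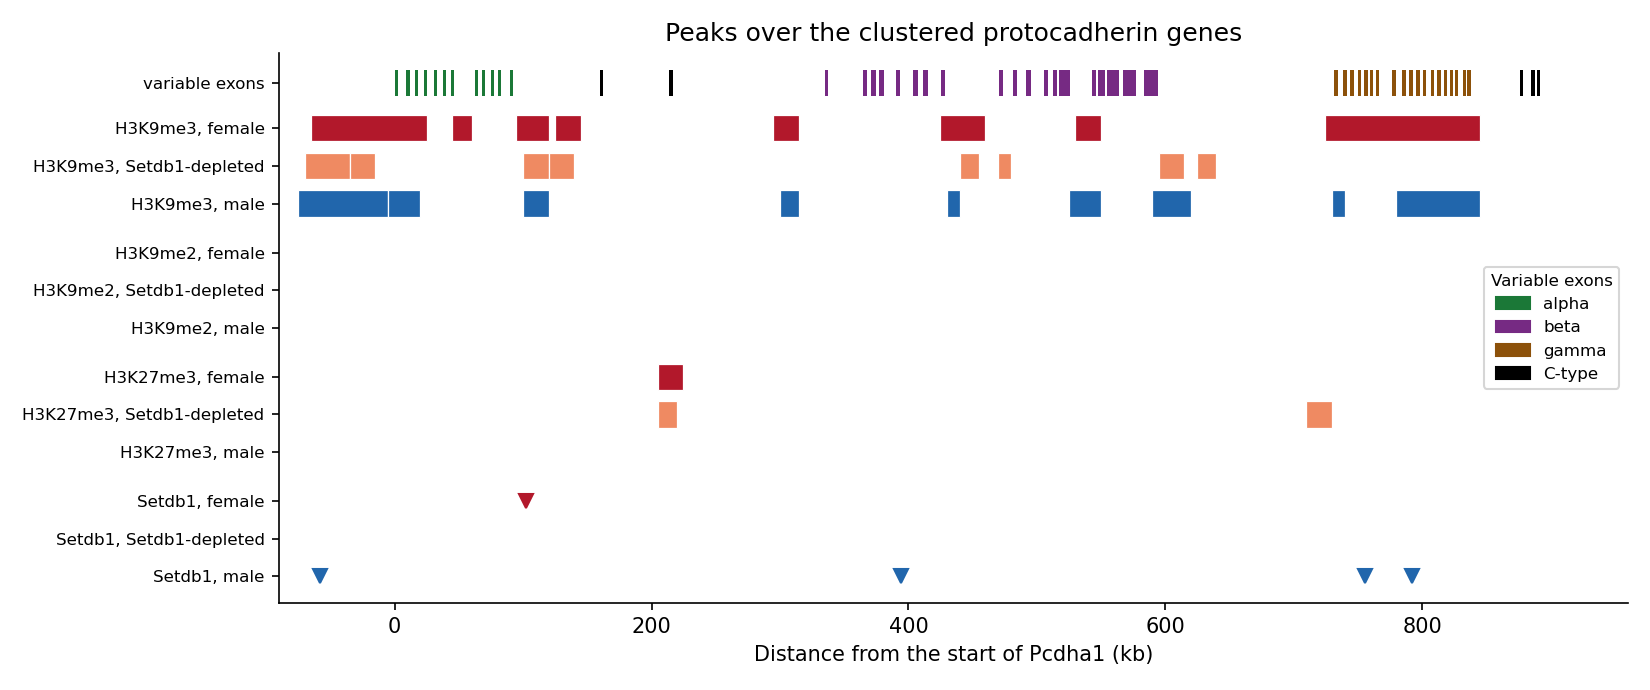
Peaks of each list over the clustered protocadherin region, with the distance from the start of Pcdha1 in kb on the horizontal axis and 1 row per list. Bars in the top row are the variable exons (or the longest exon of beta members), bars below are histone peaks and triangles are summits of Setdb1 peaks. H3K9me3 bars lie over all 3 clusters in female and male cells, the depleted row is empty over the gamma cluster, and the H3K9me2 rows are empty throughout.

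A member was counted as covered when its annotated start lay within a peak. By that count H3K9me3 covered 26 of 58 members in female, 18 in male and 1 in Setdb1-depleted cells. Among all autosomal protein-coding genes, the shares with a start in an H3K9me3 peak were 2.92% for female, 2.95% for male and 2.48% for depleted cells. The members therefore stood at 44.8% and 31.0% in female and male cells, and at 1.72% in depleted cells, near the share of all genes. The 26 female starts fell in only 4 peaks and the 18 male starts in 4, so members under 1 peak are not separate observations.

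The gamma cluster carried most of this. In female cells a single H3K9me3 peak of 120 kb (37655001 to 37775000) held the starts and the whole variable exons of all 19 A-type and B-type gamma members, from Pcdhga1 to Pcdhga12. It was the widest of the 202 female H3K9me3 peaks on chromosome 18, and 50 of the 5820 autosomal ones were wider, against a median width of 15 kb. Its left edge lay 6.79 kb before Pcdhga1, next to the non-coding gene 3222401L13Rik, and its right edge 6.46 kb past the variable exon of Pcdhga12. The peak thus followed the outline of the A-type and B-type array to within 2 steps of the grid on either side. The 3 C-type members behind it were outside, with Pcdhgc3 starting 31.4 kb past the edge.

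In male cells the same array was marked in 2 pieces. A 10 kb peak (37660001 to 37670000) held the starts of Pcdhga1 and Pcdhga2, and a 65 kb peak (37710001 to 37775000) held the 11 starts from Pcdhga7 to Pcdhga12. Between them a gap of 40 kb left Pcdhga3, Pcdhgb1, Pcdhga4, Pcdhgb2, Pcdhga5 and Pcdhga6 uncovered. The right edge was the same base as in female cells. Together the male peaks covered 62.5% of the female peak and 13 of the 19 starts, which were 8 of 12 A-type and 5 of 7 B-type members.

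In Setdb1-depleted cells no H3K9me3 peak touched the gamma cluster. The nearest one ended 91.8 kb before Pcdhga1, and from Pcdhga12 the distance back to it was 195.6 kb. Every one of the 19 members that the female peak covered was therefore uncovered. The H3 reads that the files give for the female peak, on a log2 scale after scaling to the deepest H3 pool, differed by −0.042 between the depleted and the female pool and by −0.051 between the male and the female pool. Across the 5820 autosomal female H3K9me3 peaks those differences had medians of 0.01 and 0.04, with quartiles of −0.11 to 0.13 and −0.07 to 0.15. Across the 70 peaks of at least 100 kb the quartiles were −0.039 to 0.044 and −0.014 to 0.049. Both differences over the gamma peak thus lay between the quartiles of all peaks. Both were below the lower quartile of peaks of at least 100 kb, the depleted one by little. Over the male peaks in the array, the male pool differed from the female one by −0.33 (10 kb peak) and −0.10 (65 kb peak). The part of the control in the calls was not tested.

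**Figure D2:**
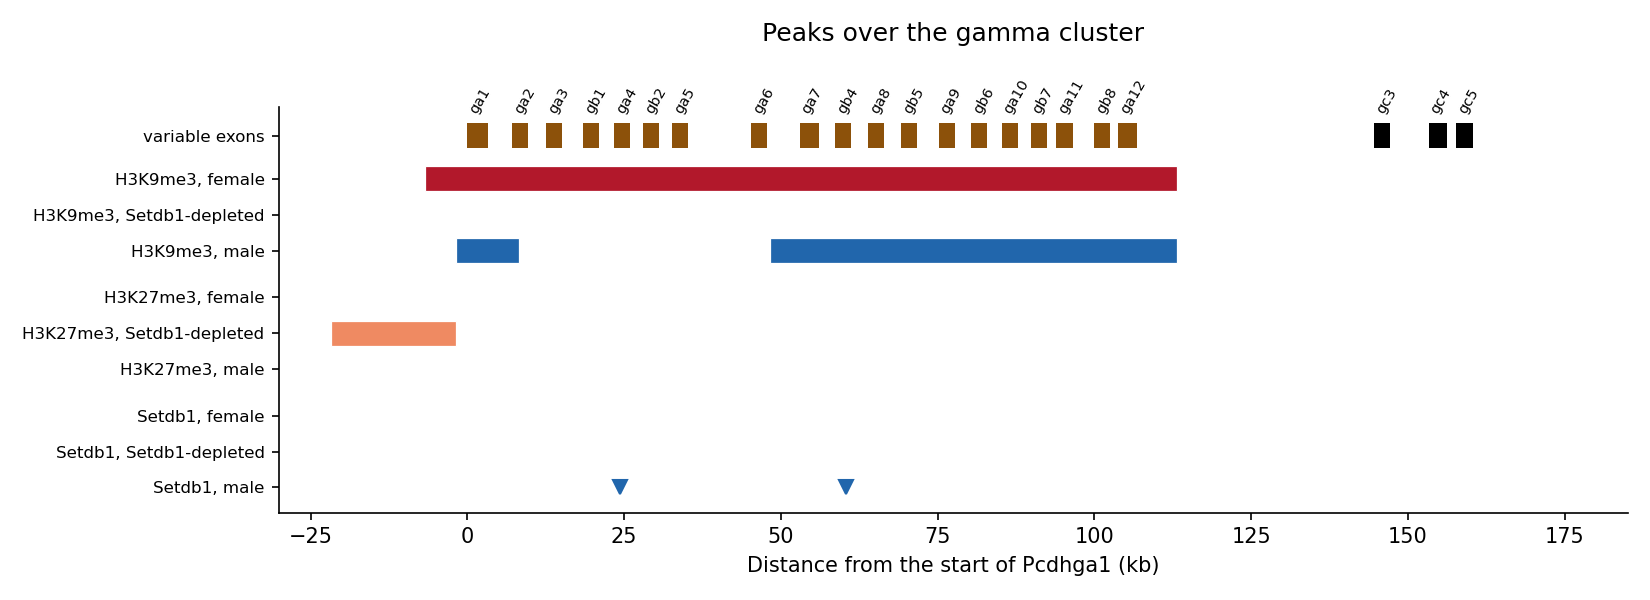
The gamma cluster at larger scale, with the distance from the start of Pcdhga1 in kb on the horizontal axis, variable exons of the 22 members named above their bars (C-type in black), histone peaks as bars and Setdb1 summits as triangles. The female H3K9me3 bar spans all A-type and B-type exons, the male one is split by a 40 kb gap, the depleted row is empty, and a depleted H3K27me3 bar ends just before Pcdhga1.

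Whole wide peaks were absent from another list elsewhere too. Of 70 autosomal female H3K9me3 peaks of at least 100 kb, 10 had no base covered in the Setdb1-depleted list (14.3%) and 8 had none in the male list (11.4%). The gamma peak was 1 of 6 that had none in the depleted list and some in the male list. At all widths, 66.7% of female peaks had no covered base in the depleted list and 49.3% had none in the male list. Most wide peaks were kept nearly whole, since 46 of the 70 were covered to at least 90% in the depleted list and 50 in the male list. How far such absences come from the calls on pooled libraries was not tested.

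**Figure D3:**
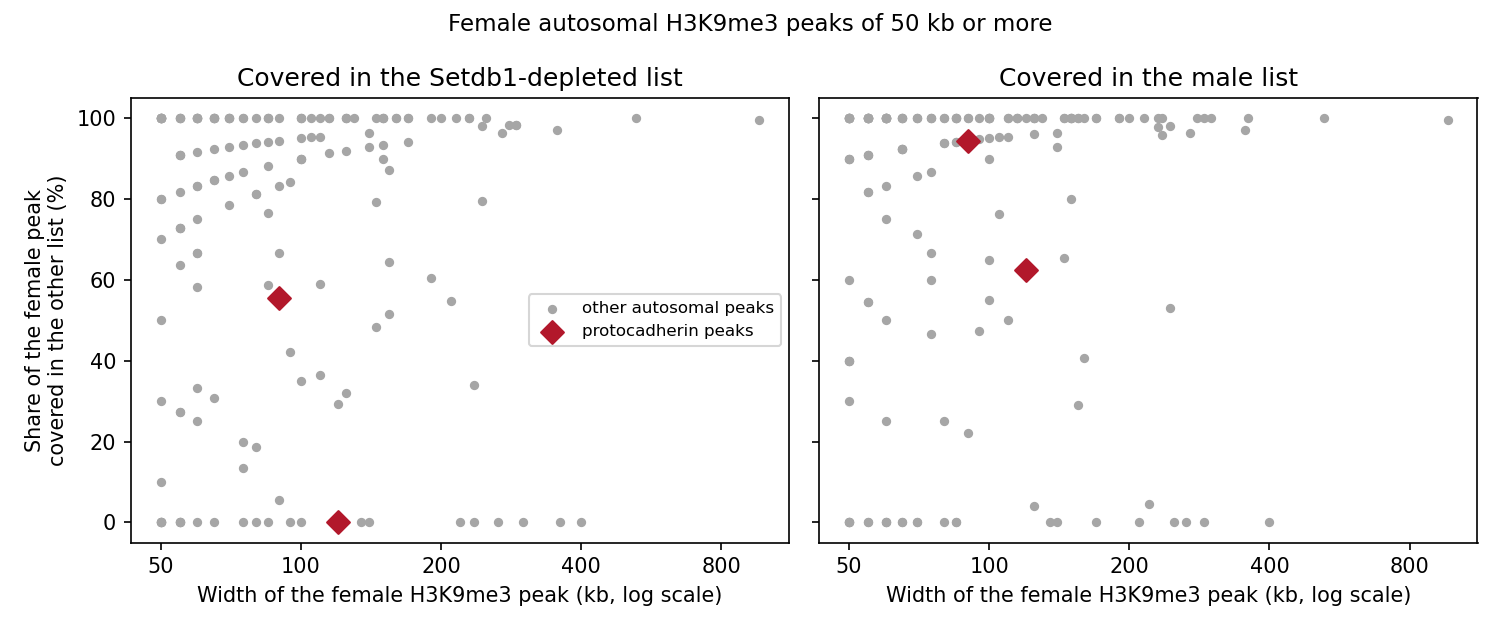
Autosomal female H3K9me3 peaks of at least 50 kb, with the width in kb on a log axis and the share covered by peaks of the Setdb1-depleted list (left) or the male list (right) in percent. The 2 protocadherin peaks (diamonds) are the 120 kb gamma peak, at 0% in the depleted and 62.5% in the male list, and the 90 kb peak at the start of the alpha cluster, at 55.6% and 94.4%.

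The alpha cluster was marked at its upstream end and behind Pcdha12. In female cells a 90 kb peak (36865001 to 36955000) began 65.2 kb before Pcdha1. It held the start of the pseudogene Gm6756, further in from that edge, and the starts of Pcdha1, Pcdha2, Pcdha3 and Pcdha4. Male cells had a 70 kb peak and, directly after it, a 25 kb peak (36925001 to 36950000) that held Pcdha1, Pcdha2 and Pcdha3. Depleted cells also had peaks in front of the cluster, of 10, 35 and 20 kb, but the last of them ended 15.2 kb short of Pcdha1. The flank before Pcdha1 was therefore marked in all 3 lists, and the member starts in 2 of them. A second female peak of 15 kb covered 51.6% of the variable exon of Pcdha7 but not its start, and neither other list had a peak there.

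Between Pcdha12 and Pcdhac1 all 3 lists again had peaks. Female cells had peaks of 25 and 20 kb there, depleted cells 2 peaks of 20 kb and male cells 1 of 20 kb (37030001 to 37050000), and these held no member start. They made up all of the 40 kb by which the depleted list covered the alpha cluster, and 35 kb of it was shared with the female list. The covered shares of the alpha cluster were 32.9% (female), 15.5% (depleted) and 15.5% (male). The C-type members Pcdhac1 and Pcdhac2 started at least 15.0 kb from an H3K9me3 peak in every list.

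The beta cluster was marked in patches. Female cells had a 35 kb peak (37355001 to 37390000) that began at Pcdhb8 and ran into the space before Pcdhb9, and a 20 kb peak (37460001 to 37480000) over the starts of Pcdhb15 and Pcdhb16. Male cells had the second of these, 5 kb longer on its left side, and a 10 kb peak inside the first that began 4.88 kb past the start of Pcdhb8. Depleted cells had 15 kb inside the first peak, 14.9 kb past the start of Pcdhb8, and no peak at Pcdhb15 or Pcdhb16. The depleted list had 1 peak of its own in the cluster, of 10 kb (37400001 to 37410000), and it held Pcdhb9, the 1 member covered in that list. Over this peak the depleted H3 pool lay below the female one by a log2 difference of −0.32, and its part in the call was not tested. Covered shares of the beta cluster were 21.2% in female, 9.63% in depleted and 15.2% in male cells, and 0 kb was shared between the depleted and the male list.

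At the end of the beta cluster the order of the lists was different. Male cells had a 30 kb peak (37520001 to 37550000) that covered 67.8% of the single exon of Pcdhb22, and depleted cells had peaks of 20 and 15 kb just behind that gene, while the female list had none between Pcdhb17 and the gamma peak. In the gap between beta and gamma genes, 25.5% was covered in depleted, 19.9% in male and 4.95% in female cells, where it was the left end of the gamma peak. In the gap between alpha and beta, 20 kb was covered in female and 15 kb in male cells, and no peak was called in depleted cells.

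**Figure D4:**
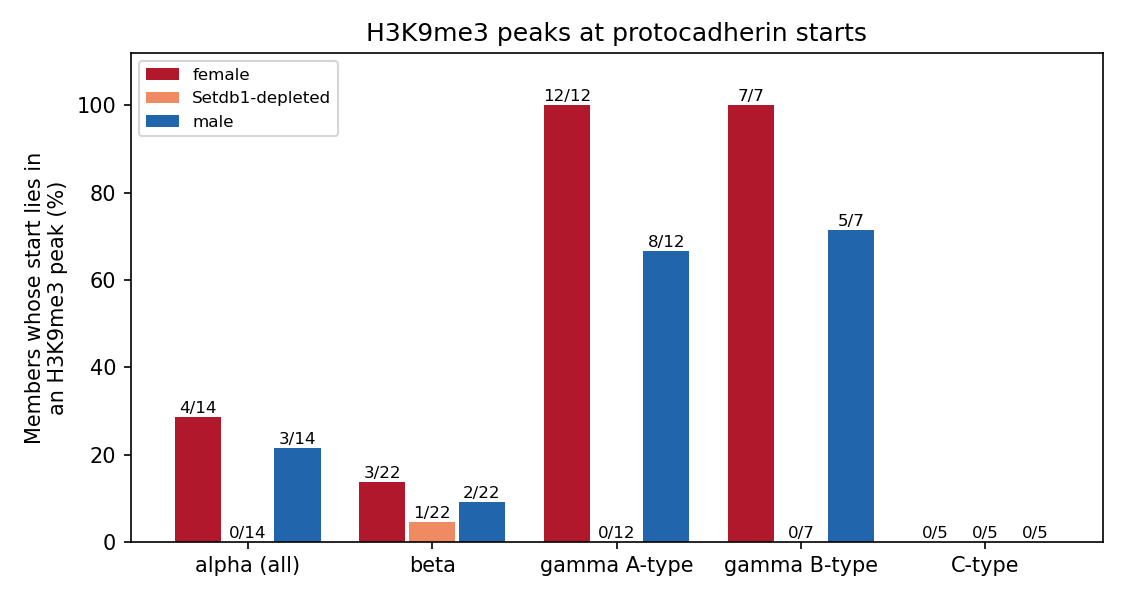
Members whose start lay in an H3K9me3 peak, in percent of each group on the vertical axis, with the number covered of the number in the group over each bar and 1 colour per list. Alpha includes its 2 C-type members. The 12 A-type and 7 B-type gamma members were all covered in female cells and none in Setdb1-depleted cells, and the 5 C-type members were covered in no list.

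Set side by side over the 3 lists, 18 members were covered in female and male cells but not in depleted cells. These were Pcdha1 to Pcdha3, Pcdhb15, Pcdhb16 and 13 gamma members. A further 8 were covered in female cells alone, which were Pcdha4, Pcdhb8 and the 6 gamma members of the male gap. Pcdhb9 was covered in depleted cells alone, and 31 members were covered in no list, among them all 5 C-type members. All 18 male members were thus among the 26 female ones.

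Of the 26 members covered in female cells, 0 were covered in depleted cells, while 18 were covered in male cells. Among the 583 other autosomal protein-coding genes that started in a female peak, 290 (49.7%) also started in a depleted peak and 304 (52.1%) in a male peak. As a share of all genes, 1.53% started in a female and in no depleted peak, and 1.09% the other way round. For female against male lists the shares were 1.38% and 1.40%. Since the members share 4 peaks, the contrast of 26 against 0 rests on 4 called intervals and largely on the gamma one.

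The bases under the peaks gave the same order. Within the region, 17.9% of the female H3K9me3 bases were shared by the depleted list and 57.1% by the male list, whereas over all autosomes 37.5% and 51.5% were. Of the 100 kb of depleted bases in the region, 50 kb were shared by the female list, against 57.8% over the autosomes, and of the male bases 82.0% were, against 56.5%. In the alpha and gamma clusters every base of the male list lay in a female peak.

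H3K9me2 was not called over any member. No H3K9me2 peak touched the region in any list, and the nearest peaks lay 3235 kb before and 2768 kb behind it in female cells, 3240 and 2233 kb in depleted cells, and 4160 and 2298 kb in male cells. Few genes had such a peak at their start, with 0.918% in female, 0.697% in depleted and 1.17% in male cells, so 0 of 58 members is near the background. Of the 8 female H3K9me3 peaks over the protocadherins 0 touched an H3K9me2 peak, near the share of all autosomal female ones, of which 747 of 5820 did (12.8%). Among those of at least 50 kb, which include 2 of the 8, 91 of 171 did (53.2%).

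H3K27me3 marked 1 member, Pcdhac2, the last C-type member of the alpha cluster. The female list had a 20 kb peak (37135001 to 37155000) and the depleted list a 15 kb peak (37135001 to 37150000) over its start, with the same left edge. The male list had none in the region. The other 57 of 58 members had no H3K27me3 at their start in any list. All autosomal genes had higher shares, with 20.4% in female, 18.1% in depleted and 18.4% in male cells, but neighbouring members are not separate observations. By bases, H3K27me3 covered 2.19% of the region in female, 3.84% in depleted and 0% in male cells. For chromosome 18 the shares were 7.10%, 4.96% and 6.61%, so the depleted list differed least from its chromosome. No H3K9me3 peak over the region touched an H3K27me3 peak of the same cells, while across the autosomes 1021 of 5820 female ones did (17.5%), and 82 of the 171 of at least 50 kb (48.0%). With 8 female peaks in the region, of which 2 are that wide, 0 is not far from the share of all peaks.

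The depleted list had a second H3K27me3 peak, of 20 kb (37640001 to 37660000), in the gap before the gamma cluster. It held the starts of Taf7, which encodes a subunit of the general transcription factor TFIID, of the pseudogene Gm8242 and of 3222401L13Rik, and it ended 1.79 kb before Pcdhga1. Neither other list had a peak there, and its last 5 kb lay under the left end of the female H3K9me3 peak. Across all genes, 2.86% started in a depleted and in no female H3K27me3 peak, and 5.2% the other way round. Within this peak the depleted H3 pool lay below the female one by a log2 difference of −0.26, and its part in the call was not tested. The lower quartile of −0.11 given above is for female H3K9me3 peaks, and none was computed for depleted H3K27me3 peaks.

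Setdb1 itself was called at few places in the region. The lists held 1 peak in female cells (exact Poisson 95% interval 0.0253 to 5.57, which covers counting error only), 0 in depleted cells (up to 3.69) and 3 in male cells (0.619 to 8.77). Across the autosomes there were 0.448, 0.137 and 1.26 peaks per Mb, and the region is 0.912 Mb long. The intervals overlap one another, so the 3 counts cannot be told apart by counting error alone.

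The female Setdb1 peak lay 9.93 kb behind the variable exon of Pcdha12, inside the H3K9me3 peak there, with a pileup of 5 reads, a fold enrichment of 3.03 over the local background and a −log10 p of 3.27. Of 1104 autosomal female peaks, 942 had a higher −log10 p. It stood low on the list, and its −log10 q was 0.

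Both male peaks in the gamma cluster lay within variable exons. The stronger one (37722130 to 37722444) was in Pcdhgb4, with a pileup of 8, a fold enrichment of 5.47, a −log10 p of 7.52 and a −log10 q of 2.81, and 284 of 3113 autosomal male peaks had a higher −log10 p. The other (37686089 to 37686209) was in Pcdhga4, with a pileup of 7, a fold enrichment of 4.86, a −log10 p of 6.37 and a −log10 q of 1.81. The Pcdhgb4 peak lay under a male H3K9me3 peak. The Pcdhga4 peak fell in the 40 kb gap between the male H3K9me3 peaks, at a place that only the female H3K9me3 list covered. The third male peak was 715 bp past Pcdhb5, with a −log10 p of 4.24, a −log10 q of 0.128 and no H3K9me3 peak over it. In depleted cells the Setdb1 peak nearest to any member was 5488 kb away from the variable exon of Pcdhgc5. That list held only 337 autosomal peaks, or 0.137 per Mb, and such distances were not computed for other genes.

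The variable exons differed in sequence between the clusters. Their median CpG content, as observed over expected from the base composition, was 0.665 in alpha, 0.386 in beta and 0.555 in gamma members. Beta exons also held more bases marked as repeats in the genome sequence, with a median of 10.3% against 2.43% and 2.08%. The exons of the single-exon beta genes were longer, with a median of 3714 bp against 2494 bp in alpha and 2607.5 bp in gamma. Unlike stretches are therefore compared, for CpG as for repeats. In the gamma cluster the ratio ran from 0.318 in Pcdhga1 to 0.780 in Pcdhgb5, and both ends of that range lay under the same female H3K9me3 peak. In the alpha cluster the 4 covered members (0.624 to 0.729) lay within the range of the whole cluster (0.439 to 0.773). The 3 covered beta members spanned 0.286 to 0.465 of a cluster range of 0.286 to 0.490. Over all members the median was 0.593 in the 26 covered and 0.435 in the 32 uncovered ones, and the covered group held 19 gamma and 3 beta members.

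**Figure D5:**
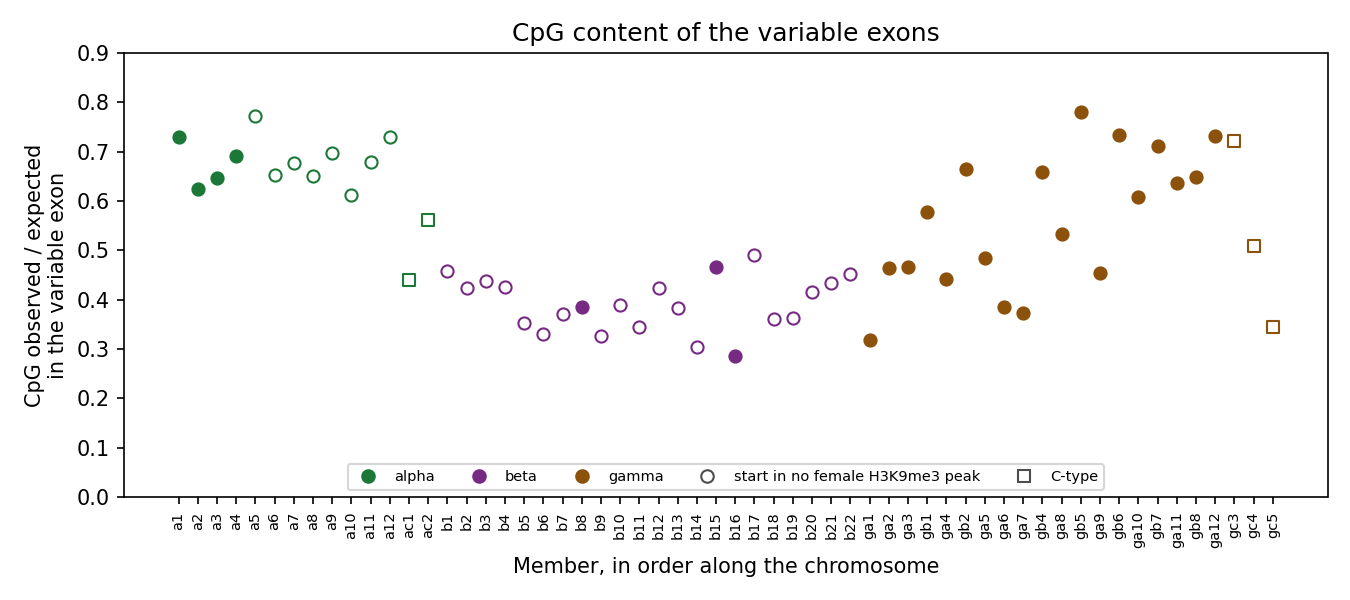
CpG observed over expected in the variable exon of each member (vertical axis), in order along the chromosome (horizontal axis). Filled points are members whose start lay in a female H3K9me3 peak, open points the rest, colours the clusters and squares the C-type members. Beta exons lie low as a group, and covered and uncovered members share the same range within alpha and beta.

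Promoters of the members held fewer CpG, and less G and C, than the median gene. In the 300 bp from 250 bp before to 50 bp after the annotated start, the members had a median of 6 CpG against 12 in all autosomal protein-coding genes, and a median G and C content of 39.7% against 55.3%. As observed over expected from the base composition, the medians were close, at 0.521 for the members and 0.540 for all genes. The 4 members at or above 12 were Pcdhac1 with 17, Pcdhac2 with 12, Pcdhgb5 with 12 and Pcdhgc3 with 22, and 3 of these are C-type members, outside the H3K9me3 peaks. The other C-type members, Pcdhgc4 with 7 and Pcdhgc5 with 6, were near the median and also outside those peaks. Covered members ranged from 0 CpG in Pcdhga12 to 12 in Pcdhgb5, with a median of 6.5.

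Repeated stretches within the region bear on how reads can be placed. The share of 100 bp words of a variable exon that occur again within the region, on either strand, had a median of 5.21% in alpha, 0.0829% in beta and 0% in gamma members. The highest were Pcdha11 with 12.95%, Pcdha6 with 11.1% and Pcdhgb2 with 10.7%. Most of every variable exon was thus unique within the region at this word length. Near-identical words with a mismatch, and copies elsewhere in the genome, were not counted.

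Few genes around or related to the clusters started in an H3K9me3 peak, as among all genes. Of 34 other protein-coding genes with a start between the first member and 500 kb past either end of the region, 2 started in a female H3K9me3 peak, Gm42416 and Gm37388, annotated genes that begin inside the alpha cluster and run into the gamma cluster, and none did in the other 2 lists (5.88% in female cells, against 2.92% of all genes). Among 10 non-clustered autosomal protocadherins, 19 classical cadherins and 22 regulators of the clustered protocadherins, such as Ctcf, Rad21, Smchd1 and Setdb1, 0 started in an H3K9me3 peak of any list, which is near the shares of all genes given above for lists of this size. The non-clustered protocadherins had H3K27me3 at 5 of 10 starts in female and in depleted cells (Pcdh1, Pcdh8, Pcdh10, Pcdh15 and Pcdh17) and at 3 in male cells (Pcdh8, Pcdh10 and Pcdh17). The shares of all genes were 20.4%, 18.1% and 18.4% in female, depleted and male cells. For the classical cadherins the counts were 5 of 19 (26.3%) in each list, with Cdh22 as the 1 gene present in all 3, and for the regulators 3, 2 and 3 of 22 (13.6%, 9.09% and 13.6%), with Wiz and Tet3 in every list. Both are near the shares of all genes.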

How the data were processed

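The members and gene lists were chosen with earlier results of these data known. ChIP-seq of MEFs was deposited as 12 peak lists, each called by the authors on pooled libraries after Bowtie2 alignment to mm10 with strain differences masked. Histone peaks were called by the authors in Seqmonk against H3, and the deposited lists give log2 H3 reads per peak scaled to the deepest pool. Which H3 pool served each call is not given in the sources used here. Setdb1 peaks were called by the authors with MACS2 2.1.0.20140616 against whole cell extract, down-sampled, at a p-value threshold of 0.001. Per the file headers, a peak has a pileup (a coverage signal), a fold enrichment (a ratio), a −log10 p and a −log10 q.

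Starts, exons and overlaps of at least 1 bp were computed in Python 3.11.15 (numpy 2.4.6, scipy 1.17.1, matplotlib 3.10.9) with GENCODE M21 and GRCm38.p6 sequence, and the overlap arithmetic was tested on simulated data. The variable exon is the longest exon at a member's start. Every member was counted, and named were the ends of each cluster, the C-type members, members covered in 1 of the female and depleted lists, and genes at the outer peak edges. Other members and genes named, such as Pcdha7, Pcdhb5, Pcdhb22 and those singled out for a sequence value or a Setdb1 peak, were chosen after their values were seen.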

Additional observations from a re-analysis of the deposited data

How the results depend on the processing

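Each group has 1 pooled list, so differences between lists cannot be set against replicates. No paired analysis was possible because the lists pool the libraries and no result comes from a test. Of 150 recomputed values, 135 stayed close to the main one (counts within 1.5 times, shares within a 95% binomial interval over 182 bins of 5 kb). The other 15 moved, and the cause was not tested beyond what each setting leaves out. Among the 135 were all values for H3K9me2, male H3K27me3 and depleted Setdb1 peaks, which were 0 in every setting. So was the count of members in a female and in no depleted H3K27me3 peak. Where no peak was called, leaving out or merging peaks could not move the value, so 135 overstates how stable the other values were. With equal numbers of the widest peaks in each list, 26, 1 and 16 members started in a female, depleted and male H3K9me3 peak. Leaving peaks of 100 kb or more out of every list, an alternative chosen after seeing the data, left 7 female members, all 7 uncovered in the depleted list, and 17.5% of the region covered in female cells. Over the variable exon stretches alone the female share was 39.8%. With peaks of at least 20 kb, the depleted list covered 0 members and 6.58% of the region with 3 H3K9me3 peaks, the male list kept 5 H3K9me3 peaks, and for H3K27me3 the depleted list kept 1 peak and 0 members. A peak within 5 kb of the start gave 2 members in depleted cells for H3K9me3 and 2 for H3K27me3. At a −log10 p of at least 5, or a q-value under 0.05, 0 female Setdb1 peaks remained, and 200 kb added on either side gave 5 male ones. RefSeq starts moved none of the counts of members by more than 1.5 times.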
